A study of Mus musculus with 4 samples.

Results

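The collagen chain genes encode the alpha chains that wind into triple helices to form the collagens, the main structural proteins of connective tissue and bone. They were followed here in mouse skeletal stem cells with and without Mmp14. Members were all genes whose symbol has the form Col, a type number, the letter a and a chain number, taken from probe sets annotated with exactly 1 gene symbol, with the brightest probe set standing for a gene. This gave 44 genes out of 22180 genes on the array, and 33 of them were bright enough to be tested among 12708 tested genes. The 44 genes were grouped by the kind of assembly their chains form, as 11 fibrillar, 9 FACIT (fibril-associated collagens with interrupted triple helices), 9 basement membrane, 9 network and 4 transmembrane genes, with Col26a1 and Col28a1 in none of these classes. The basement membrane class here held the chains of type IV and types VII, XV and XVIII, and the network class held those of types VI, VIII and X.

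The skeletal stem cells came from 4 to 6 week old mice that were Mmp14+/+ (wild type) or Mmp14-/- (knockout), and both groups were kept for 48 h in 3D collagen gels before total RNA was taken. There were 4 Affymetrix arrays, 2 per genotype. The labels do not say how the Mmp14 allele was made, whether cells of several mice were pooled, or whether the replicates were separate animals or cultures, so p-values measure only the spread between these arrays, which may be technical. Mmp14 encodes MT1-MMP, a membrane-anchored protease that cleaves fibrillar collagen around the cell.

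Collagen chains are made as procollagens with a long run of repeats that begin with glycine. Fibrillar chains (types I, II, III, V and XI) build the cross-striated fibrils of bone, cartilage and skin, and FACIT collagens sit on the surface of those fibrils. Type IV collagen forms the sheet of the basement membrane, type VI makes beaded filaments, and types VIII and X make short-chain lattices. Cells of the bone lineage are known above all for type I collagen, and cartilage cells for types II, IX, X and XI.

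Values are log2 intensities as the authors deposited them, and a change is knockout minus wild type on that scale. A gene was called when its limma p-value, adjusted over all genes tested, was below 0.05, and genes were tested when their mean reached 2.34 log2, the median row mean of the table (here the brightness limit). Array medians lay between 2.32 and 2.37, and the tested genes correlated at 0.992 and 0.994 within the groups and at 0.970 to 0.975 between them. Mmp14 was measured at 8.77 and 8.83 in wild type and at 5.77 and 5.84 in knockout, a direction that followed the labels. The knockout signal still lay above the array medians, and the source of this remaining signal was not tested. All 14 measured markers of skeletal stem and stromal cells passed the brightness limit, and 6 of them were called, beside 11.3% of all tested genes. Pdgfra, Cd200, Nt5e, Cxcl12 and Mcam were called higher and Lepr lower in knockout. Of 9 macrophage and leukocyte markers, 5 passed the limit (Cd68, Csf1r, Lyz2, Cd14 and Fcer1g), of which limma called 0 and 1 had an unadjusted p below 0.05, and 4 did not, among them the pan-leukocyte marker Ptprc. The mean over that list ran from 2.60 to 2.72 log2 in wild type and from 2.48 to 2.58 in knockout, and the part of both lists in the collagen values was not tested. The number of arrays limits the precision.

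Of the 33 tested collagen genes, 6 were called higher and 1 was called lower in knockout, and 26 were not called. Col14a1, Col18a1, Col4a1, Col4a2, Col4a6 and Col26a1 rose, and Col8a1 fell. Those 7 calls are 21.2% of the tested members, against 11.3% called among all genes tested. By direction, 18.2% of members were called higher against 6.2% of all genes, and 3.03% were called lower against 5.12%. The median change of the tested members was 0.02 log2, beside −0.0041 for all genes tested. In these bulk samples, fewer cells of a type and less RNA per cell cannot be told apart. The groups did not overlap in 75.8% of the tested members, against 57.8% of all tested genes. How many genes passed varied with the model: a fit of all probe sets at once called 218, and Col14a1 was the only collagen gene among them. With a variance prior that follows brightness and is robust to outliers, 2099 genes were called and the collagen calls came to 10 higher and 3 lower. Leaving out wild type replicate 2 left 957 genes called, leaving out knockout replicate 1 left 687, and leaving out knockout replicate 2 left 896.

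**Figure D1:**
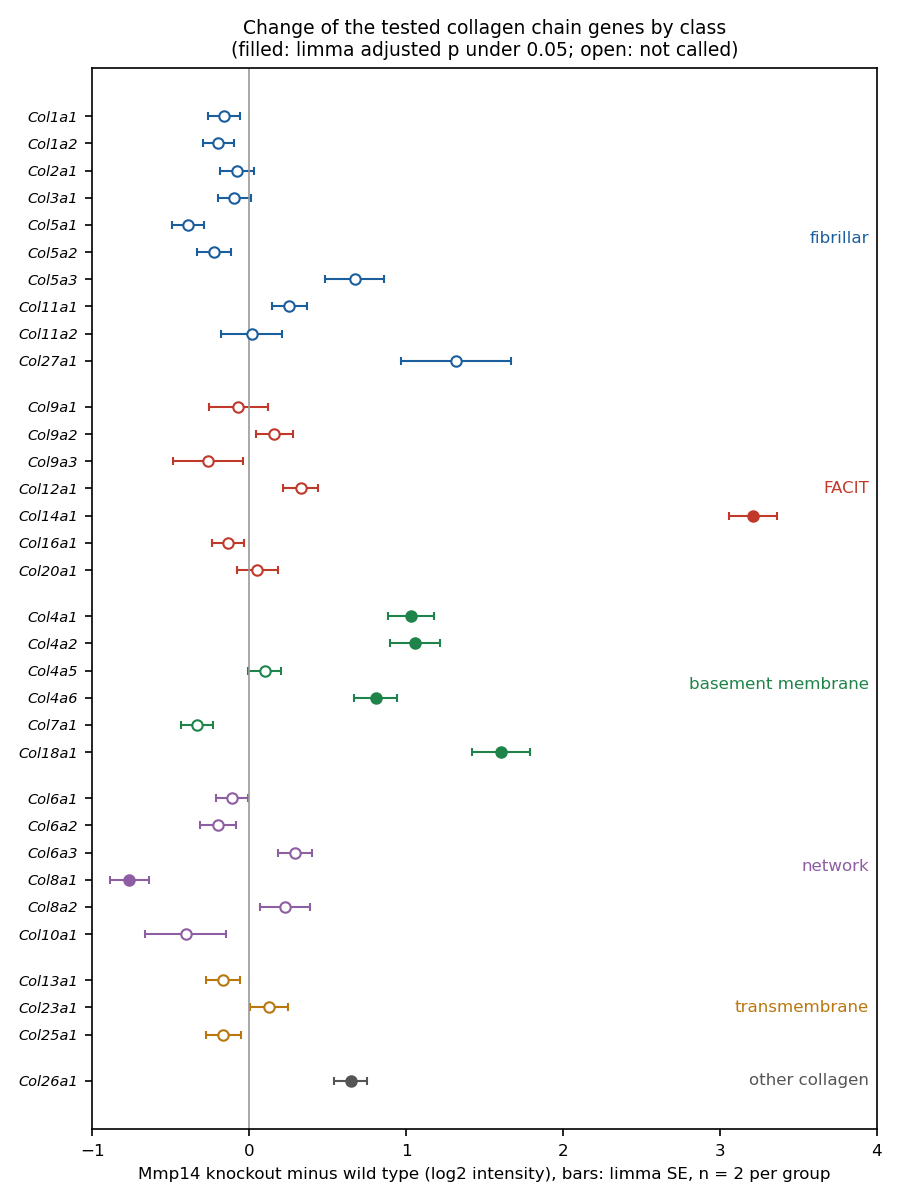
Change of each of the 33 tested collagen genes (x axis, knockout minus wild type in log2 intensity; y axis, genes by class), with limma standard errors as bars and filled points for called genes. Filled points lie in the FACIT, basement membrane and network classes and at Col26a1, and none of the 10 tested fibrillar genes was called.

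The fibrillar chains that make up most of the matrix of bone and skin were not called. Of the 10 tested fibrillar genes, limma called 0, while 3 (Col5a1, Col5a3 and Col27a1) had an unadjusted p below 0.05, as did 27.5% of all tested genes, a share close to that of the class. Col1a1, the alpha 1 chain of type I collagen, was measured at 11.61 and 11.62 in wild type and at 11.41 and 11.49 in knockout. Its partner chain Col1a2 gave 10.96 and 10.94 in the wild-type arrays, against 10.78 and 10.72 in the knockout arrays. Both chains lay slightly lower in both knockout arrays, by −0.16 (SE 0.10) and −0.20 (SE 0.10) log2, and neither was called (limma adjusted p = 0.36 and 0.271). A second, dimmer probe set of Col1a2 gave −0.17. Col3a1, the chain of the type III collagen that mixes with type I in skin and vessels, was at 9.93 and 9.99 in wild type and at 9.93 and 9.80 in knockout. Col2a1, the cartilage chain, was at 10.53 and 10.51 in wild type and at 10.36 and 10.53 in knockout, so its groups overlapped. The 95% intervals of the change, which are pointwise and come from the moderated limma fit, ran from −0.44 to 0.19 over these 4 genes, so a change of a doubling or a halving lay outside them.

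The type V and XI chains, which help to start fibrils and set their width, had values of both signs. Col5a1 was at 9.12 and 9.11 in wild type and at 8.77 and 8.68 in knockout, a change of −0.39 (SE 0.10, limma adjusted p = 0.0637), and Col5a2 gave −0.23 (limma adjusted p = 0.248). Col5a3, the third chain of the type, was at 4.10 and 3.56 in wild type and at 4.47 and 4.52 in knockout, a change of 0.67 (SE 0.19, limma adjusted p = 0.0734). The Col5a1 and Col5a2 values were lower, and those of Col5a3 higher, in both knockout arrays, and none of the changes was called. Col5a3 was called without wild type replicate 1 (change 0.94, limma adjusted p = 0.0174), the array with its higher wild-type value. Col11a1 gave 0.26 and Col11a2 0.02, and the latter turned to −0.0019 after quantile normalization and to −0.0063 after centring on array medians.

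Col27a1, a fibrillar chain known from cartilage, had the largest change in its class without a call. It was at 3.01 and 4.09 in wild type and at 5.09 and 4.65 in knockout, a change of 1.32 (SE 0.35, limma adjusted p = 0.0661). Its groups did not overlap, but the wild-type arrays differed from each other by more than the knockout arrays did. Without wild type replicate 2 the change was 1.86 and was called (limma adjusted p = 0.0118). Col24a1, the remaining fibrillar gene, had a mean of 2.31 log2, just below the limit, and was not tested. The median change of the 10 tested fibrillar genes was −0.09, with 4 above 0 and 6 below. With the brightness-following prior, Col5a1 (limma adjusted p = 0.00718), Col1a2 (0.0406), Col5a3 (0.0456) and Col27a1 (0.0225) passed the threshold. Col5a1 also passed under a stricter brightness limit (limma adjusted p = 0.0208).

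Cartilage collagens of other classes also stayed without a call. Of the type IX chains, which decorate type II fibrils, Col9a1 gave −0.07, Col9a2 0.16 and Col9a3 −0.26. Col10a1, the chain of enlarged growth plate cartilage cells, was at 6.67 and 6.05 in wild type and at 5.68 and 6.23 in knockout, and its groups overlapped. In the same arrays all 9 genes of the chondrocyte marker list, which holds Col2a1 itself, were tested. Called higher were 3 (Sox9, Cnmd and Ucma) and called lower 2 (Acan and Comp), beside 6.2% and 5.12% of all tested genes. The mean over the list ran from 6.84 to 6.88 log2 in wild type and from 7.10 to 7.37 in knockout. The part of cartilage-like cells in the collagen values was not tested.

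Among the FACIT genes, Col14a1 rose and the other 6 tested were not called. Col14a1 encodes the chain of type XIV collagen, which binds fibrils in skin and tendon. It was measured at 3.08 and 2.97 in wild type and at 6.43 and 6.05 in knockout. Both knockout arrays were far above both wild-type arrays, with a change of 3.21 log2 (n = 2 per group, SE 0.15, limma adjusted p = 0.000775), or 9.27-fold. The wild-type signal lay close to the array medians of 2.32 to 2.37, so the size of the fold is uncertain. Its call held in every alternative in which it was tested, with adjusted p-values from 1.13e-05 to 0.030. It fell out only under the stricter brightness limit of 4.76 log2, because its own mean was 4.63.

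Col12a1, a close relative of Col14a1 among the FACIT chains, was at 10.36 and 10.33 in wild type and at 10.76 and 10.58 in knockout. That was a change of 0.33 (SE 0.11, limma adjusted p = 0.123), which was not called, while the brightness-following prior gave an adjusted p of 0.0148 by limma. Col16a1 gave −0.14 and Col20a1 0.05, and the value of Col20a1 was −0.00032 after quantile normalization. Col19a1 and Col22a1 were below the brightness limit in all 4 arrays. The median of the tested FACIT genes was 0.05.

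The basement membrane class held most of the genes that rose: 4 of its 6 tested genes were called higher and 0 lower, beside 6.2% of all tested genes called higher. Col18a1, which encodes the chain of type XVIII collagen whose end fragment is endostatin, was at 5.60 and 5.67 in wild type and at 7.50 and 6.98 in knockout. It rose by 1.60 log2 (n = 2 per group, SE 0.18, limma adjusted p = 0.00507), or 3.04-fold. The 2 knockout arrays were well apart from each other but both lay above the wild-type arrays.

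Col4a1 and Col4a2 encode the chains of the most widespread form of type IV collagen and rose by nearly the same amount. Col4a1 was at 4.91 and 5.03 in wild type and at 6.19 and 5.82 in knockout, a change of 1.03 (SE 0.15, limma adjusted p = 0.0114). Col4a2 was at 5.63 and 5.77 in wild type and at 6.96 and 6.55 in knockout, a change of 1.06 (SE 0.16, limma adjusted p = 0.0131). In both genes knockout replicate 1 was the highest array. Leaving out any 1 array left both calls in place, with adjusted p-values from 0.00639 to 0.0468 by limma. With every probe set in 1 fit the adjusted p by limma was 0.104 for Col4a1 and 0.110 for Col4a2, and 0.0696 for Col18a1.

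Of Col4a5 and Col4a6, the chains of another form of type IV collagen, Col4a6 was called and Col4a5 was not. Col4a6 was at 2.65 and 2.85 in wild type and at 3.43 and 3.68 in knockout, a change of 0.81 (SE 0.14, limma adjusted p = 0.0178). Its wild-type signal lay close to the array medians of 2.32 to 2.37, so the size of the change is uncertain. Col4a5 was at 5.55 and 5.53 in wild type and at 5.69 and 5.59 in knockout, a change of 0.10 (SE 0.10, limma adjusted p = 0.597, 95% interval −0.16 to 0.35). The call of Col4a6 was lost without wild type replicate 1 (limma adjusted p = 0.0578) and without knockout replicate 2 (0.0646). Both genes are X-linked, and markers of sex differed between the groups: Xist was at 8.45 and 8.48 in wild type and at 9.30 and 9.09 in knockout, and the Y-linked Eif2s3y was at 6.18 and 5.79 against 5.19 and 5.40. Both were called, but Xist lost its call without knockout replicate 1 (limma adjusted p = 0.0801). Eif2s3y lost its call without wild type replicate 1 (limma adjusted p = 0.107), knockout replicate 1 (0.176) or knockout replicate 2 (0.0648). The Y-linked Kdm5d (−0.42) and Uty (−0.25) were not called (limma adjusted p = 0.104 and 0.520). Xist, Eif2s3y, Kdm5d and Uty lay above the array medians in every array, so each array held markers of both sexes. The part of these markers in the values of Col4a5 and Col4a6 was not tested.

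Col4a3 and Col4a4, which make the type IV network of the kidney filter, were below the brightness limit. Col4a3 was at 2.12 and 2.06 in wild type and at 2.12 and 2.08 in knockout, and Col4a4 was at 2.06 and 2.10 in wild type and at 2.04 and 2.09 in knockout. Col15a1, the close relative of Col18a1, was also below the limit, at 2.08 and 2.05 in wild type and at 2.18 and 1.93 in knockout. Col7a1, whose chains form the anchoring fibrils of skin, had lower values in knockout, at 3.67 and 3.68 in wild type and at 3.38 and 3.30 in knockout, a change of −0.33 (SE 0.10, limma adjusted p = 0.0967). The class median was 0.92 over the 6 tested genes. Over all 9 genes, the dim ones included, it was 0.10, the value of Col4a5.

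**Figure D2:**
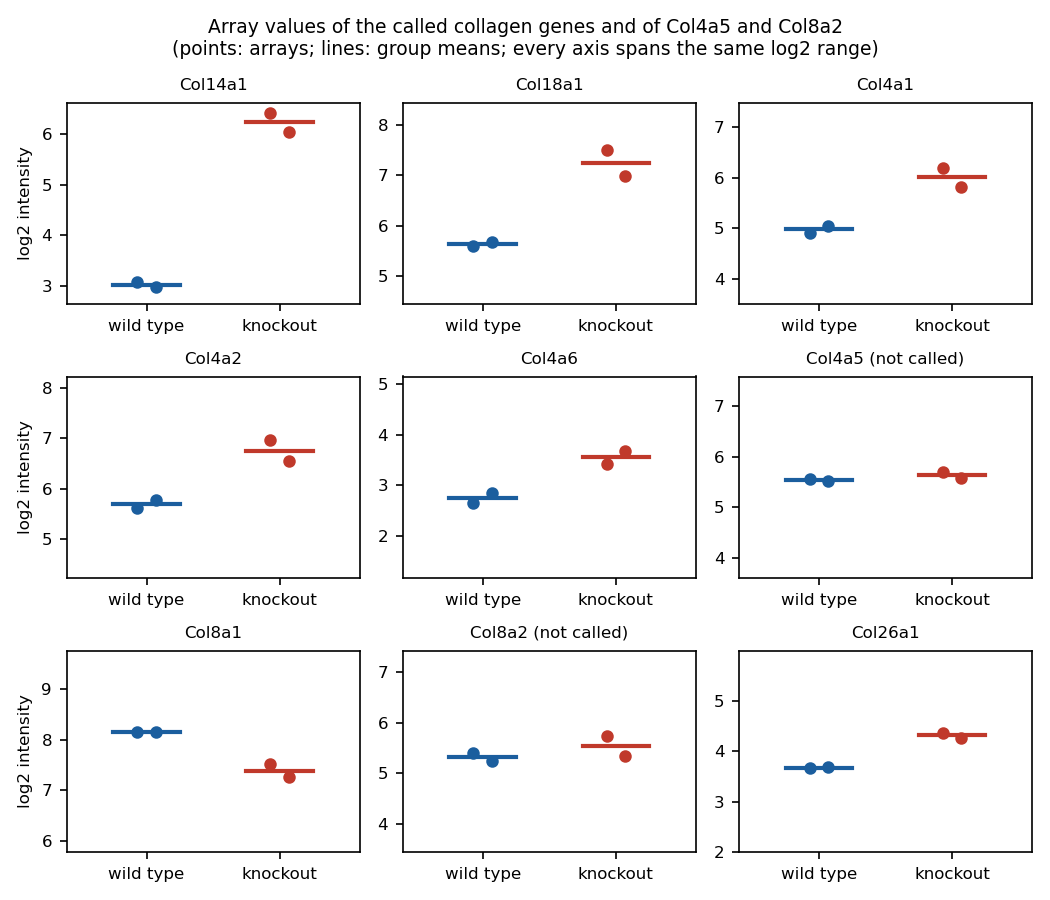
Array values in log2 intensity (y axis) of the 7 called collagen genes and of Col4a5 and Col8a2, by genotype (x axis), with points for arrays and lines for group means of 2 arrays. In the 7 called genes both knockout arrays lie on the same side of both wild-type arrays, and in Col8a2 the groups overlap; levels of different genes are not comparable.

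Endothelial cells, pericytes and fat cells also make type IV collagen, and their markers were read in the same arrays. Of 9 endothelial markers, 8 were below the brightness limit, among them Pecam1, Cdh5 and Kdr. The mean over that list ran from 1.78 to 1.90 log2 in wild type and from 1.83 to 1.90 in knockout, and its 1 tested gene, Vwf, was not called. Of 8 tested pericyte and smooth muscle markers, limma called 0 higher, with 0 higher at an unadjusted p below 0.05. Cnn1 and Rgs5 were called lower, beside 5.12% of all tested genes. The list means were 5.94 to 6.03 in wild type and 5.68 to 5.81 in knockout. Of 5 tested adipocyte markers, Pparg (2.31) and Lpl (0.95) were called higher, beside 6.2% of all tested genes. Adipoq (−0.11), Fabp4 (−0.07) and Cebpa (0.40) were not called, and Plin1 and Cidec were below the limit. The mean of the adipocyte list ran from 2.70 to 2.82 log2 in wild type and from 3.22 to 3.26 in knockout, and its part in the collagen values was not tested.

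The starts of the type IV genes lie in pairs that point away from each other, and the starts of the pairs that include called genes are shown because both genes of one pair were called and a single gene of the other. RefSeq places the starts of Col4a1 (minus strand) and Col4a2 (plus strand) so close that the annotated transcripts overlap by 22 bases, at chr8:11312805-11312826 in GRCm38.p6. The starts of Col4a6 (minus strand) and Col4a5 (plus strand) are 1343 bases apart on chromosome X. Below, the overlap is given on the plus strand, and the 250 bases before the starts of Col4a6 (chrX:141474077-141474326) and Col4a5 (chrX:141475169-141475418) are given 5′ to 3′ along each gene. Capitals mark matches to the motifs named after the sequences.
Col4a1/Col4a2 overlap: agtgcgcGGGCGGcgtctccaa
Col4a6: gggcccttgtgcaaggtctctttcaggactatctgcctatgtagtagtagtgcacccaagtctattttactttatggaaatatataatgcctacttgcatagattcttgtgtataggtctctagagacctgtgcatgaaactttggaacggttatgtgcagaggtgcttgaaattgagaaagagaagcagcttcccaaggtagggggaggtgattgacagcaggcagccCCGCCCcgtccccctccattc
Col4a5: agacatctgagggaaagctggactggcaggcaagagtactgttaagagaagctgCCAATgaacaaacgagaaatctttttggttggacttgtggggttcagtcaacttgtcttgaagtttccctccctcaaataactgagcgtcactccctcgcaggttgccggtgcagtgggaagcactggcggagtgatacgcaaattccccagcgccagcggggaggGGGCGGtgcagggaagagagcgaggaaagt
Searched on both strands were TATAAA, the GC box GGGCGG, the CCAAT box and the AP-1 motif TGANTCA, whose letters do not overlap in these windows. The overlap of Col4a1 and Col4a2 held 1 GC box. The Col4a6 window held 1 GC box and no other match, and that of Col4a5 held 1 GC box and 1 CCAAT box. Of the 32851 RefSeq windows of 250 bases, 32.7% held a GC box, 33.8% a CCAAT box, 12.4% TATAAA and 6.75% TGANTCA. The windows of Col4a1 and Col4a2 lie inside the other gene and are not shown. RefSeq windows were found for 35 of the 44 collagen genes and for 5 of the 7 called ones, with none for Col14a1 or Col26a1 in the table used. In the 250 bases before the start of Col8a1, the only member called lower, there were 4 GC boxes, and the same number stood before Col8a2, which was not called. No genome build is given for the array, so these windows are RefSeq's and not the array's.

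In the network class, Col8a1 fell and the other 5 tested genes were not called. Col8a1 encodes a chain of the short-chain type VIII collagen found beneath blood vessel and corneal endothelium. It was at 8.15 and 8.16 in wild type and at 7.52 and 7.26 in knockout, a change of −0.76 log2 (n = 2 per group, SE 0.12, limma adjusted p = 0.0158). The wild-type arrays were nearly equal and both knockout arrays were lower. The call was lost without wild type replicate 2 (limma adjusted p = 0.0544) and without knockout replicate 2 (0.0627). Its partner chain Col8a2 was at 5.39 and 5.23 in wild type and at 5.74 and 5.34 in knockout, a change of 0.23 (SE 0.16, limma adjusted p = 0.412), and its groups overlapped.

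The type VI chains, whose beaded filaments surround cells, were not called. Col6a1 gave −0.11 and Col6a2 −0.20, while Col6a3, the longest of the classical chains, was at 8.21 and 8.14 in wild type and at 8.53 and 8.40 in knockout, a change of 0.29 (SE 0.11, limma adjusted p = 0.145). Col6a3 passed with the brightness-following prior (limma adjusted p = 0.0431). A dimmer second probe set of Col6a1 gave −0.31 and one of Col5a1 −0.31, in the same direction as the brighter ones. Col6a4, Col6a5 and Col6a6 were below the brightness limit. The median of the tested network genes was −0.15.

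**Figure D3:**
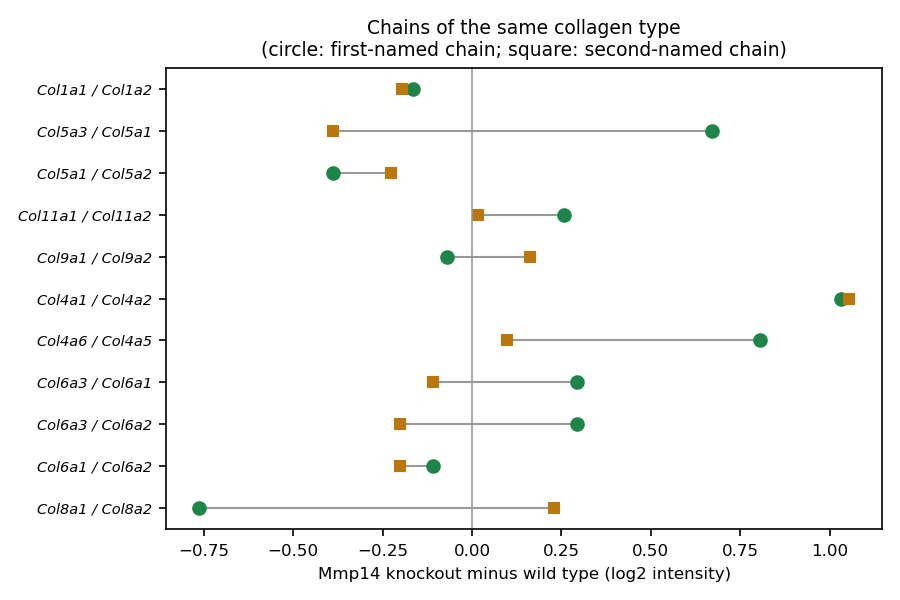
Change of 11 pairs of chains of the same collagen type (x axis, knockout minus wild type in log2 intensity; y axis, pairs), with a circle for the first-named chain and a square for the second. The symbols of Col4a1 and Col4a2 and of Col1a1 and Col1a2 nearly coincide, while those of Col5a3 and Col5a1, Col8a1 and Col8a2, and Col4a6 and Col4a5 are far apart.

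Whether chains of 1 collagen type differed in their change was examined within the arrays for 11 pairs. The value was knockout minus wild type of the log2 difference between the chains. The pairs were picked by hand and leave out other tested pairs, among them Col5a3 with Col5a2 and Col9a1 with Col9a3. With 2 arrays per group, the exact two-sided permutation test over the arrays cannot give a p below 0.333, so it says nothing about the pairs, and their values are given as a description. The SEs of the pairs come only from the spread of the 2 arrays per group. They are not moderated by limma and cannot be compared with the SEs of single genes. For Col8a1 against Col8a2 the difference was lower in knockout, with a value of −0.99 log2 (SE 0.11). For Col5a3 against Col5a1 it was 1.06 (SE 0.27). For Col4a6, whose wild-type signal was close to the array medians, against Col4a5 it was 0.71 (SE 0.21). For Col6a3 it was 0.40 against Col6a1 (SE 0.06) and 0.49 against Col6a2 (SE 0.11). In these 5 pairs, and for Col5a1 against Col5a2 (−0.16) and Col6a1 against Col6a2 (0.09), the differences of the knockout arrays did not overlap those of the wild-type arrays. Those are 7 of the 11 pairs, some of which share a chain, beside 57.8% of all single genes tested whose groups did not overlap. That share is for genes, and none was computed for differences between genes, so no conclusion is drawn from the count. The differences for Col4a1 and Col4a2 (−0.02, SE 0.03) and for Col1a1 and Col1a2 (0.03, SE 0.07) overlapped.

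The transmembrane collagens, which span the cell membrane, were not called: Col13a1 gave −0.17, Col23a1 0.13 and Col25a1 −0.16, and Col17a1 was below the brightness limit. Of these 3 tested genes limma called 0, and 0 had an unadjusted p below 0.05. Col13a1 was the dimmest tested member, with a mean of 2.55 log2. Col26a1, a collagen outside the main classes known from testis and ovary, was at 3.67 and 3.68 in wild type and at 4.37 and 4.27 in knockout, a change of 0.65 (SE 0.10, limma adjusted p = 0.0150). Its arrays were close within each group, and both knockout arrays were higher. The call was lost without knockout replicate 1 (limma adjusted p = 0.0889). Of the 6 genes that rose, knockout replicate 1 was above knockout replicate 2 in 5, Col4a6 being the exception.

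**Figure D4:**
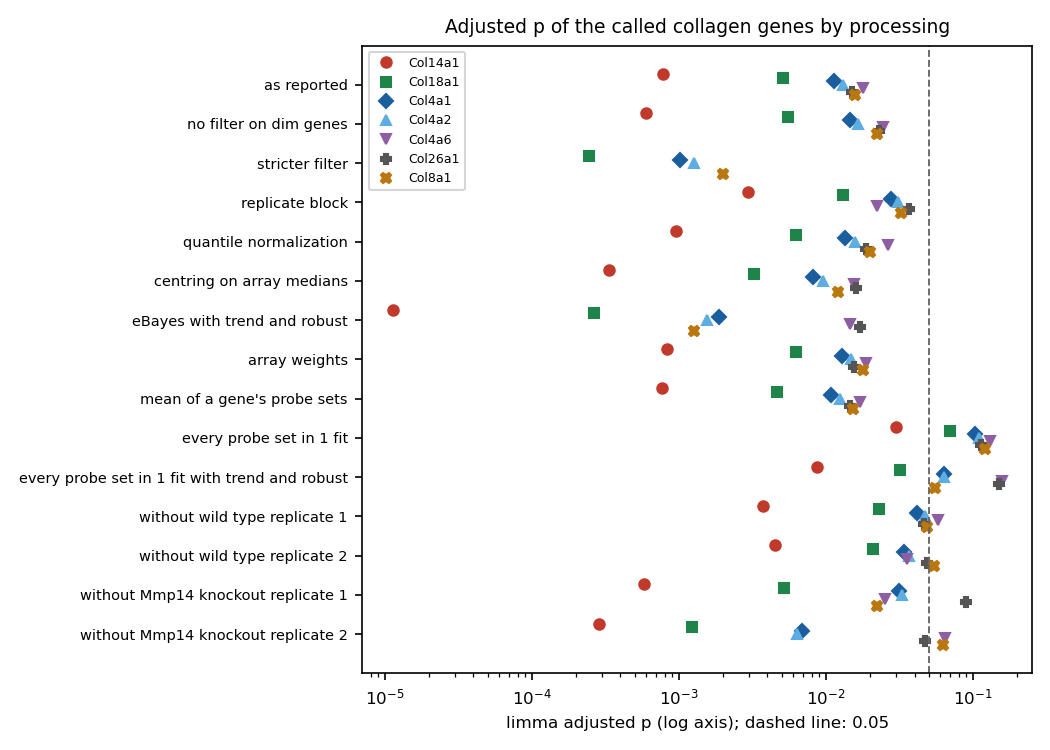
Adjusted p from limma (x axis, log scale) of the 7 called collagen genes under each way of processing (y axis), with the threshold of 0.05 as a dashed line. Col14a1 lies to the left of the line in every setting in which it was fitted, and 6 of the 7 genes lie to its right when every probe set is fitted at once; Col14a1, Col4a6 and Col26a1 were not fitted under the stricter filter.

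Of 27 tested genes for enzymes and chaperones that build, cut and cross-link collagen, 3 were called higher, 3 lower and 21 not, with a median of −0.19. The called genes are 22.2% of the list, beside 11.3% of all tested genes, and the chaperone gene Serpinh1 (−0.28) was not among them. P4ha2, a subunit of the prolyl hydroxylase that stabilises the helix, was at 7.05 on average in wild type and 5.35 in knockout (−1.70, SE 0.13, limma adjusted p = 0.00172), and P3h2, a prolyl 3-hydroxylase known to act on type IV collagen, rose by 1.43 (SE 0.15, limma adjusted p = 0.00435). Adamts14, a procollagen N-propeptidase, fell by 0.89. Pcolce2, an enhancer of propeptide cleavage, rose by 0.80, with a call that was lost without wild type replicate 2 (limma adjusted p = 0.123), without knockout replicate 2 (0.132) and without the brightness limit (0.0611).

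Of 9 tested collagen receptor and uptake genes, 1 was called higher, 1 lower and 7 not, with a median of 0.17. With 1 gene each way, this is near the 6.2% higher and 5.12% lower among all tested genes. Itga2, the collagen-binding integrin chain alpha 2, rose by 1.23 (limma adjusted p = 0.00201), and Itga11, the alpha 11 chain that binds fibrillar collagen, fell by 0.65, without a call when knockout replicate 1 (limma adjusted p = 0.0703) or knockout replicate 2 (0.0602) was left out. Of 6 tested proteases that cleave collagen, Mmp13 (3.34) and Mmp9 (0.76) were called higher, beside 6.2% of all tested genes, and 3 were not called. Mmp14, the gene knocked out, was called lower, which the genotypes fixed in advance. The call of Mmp9 was lost without wild type replicate 1 (limma adjusted p = 0.0624) and without knockout replicate 2 (0.0706).

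Of 17 transcription factors known to act on collagen genes, 4 were called higher (23.5%), 3 lower (17.6%) and 10 not, with a median of 0.17, beside 6.2% higher and 5.12% lower among all tested genes. Sox9, the factor that drives Col2a1 and other cartilage collagen genes, rose by 1.92 (SE 0.14, limma adjusted p = 0.00135), while Col2a1 itself was not called. Sp7, the bone factor, fell by 3.08 (SE 0.26, limma adjusted p = 0.0020), while Col1a1 was not called. Sp7 is also in the osteoblast marker list, whose 3 tested genes were all called, in both directions. Sp7 and Alpl (−1.76) were lower and Dmp1 (2.96) was higher, while Ibsp, Bglap and Phex were below the brightness limit. The mean over that list ran from 3.63 to 3.69 log2 in wild type and from 3.45 to 3.53 in knockout. Its part in the collagen values was not tested. Zeb1 fell by 1.04 and Egr1 rose by 0.87. Of 17 tested matrix proteins that bind collagen, 4 were called higher (23.5%), 1 lower (5.88%) and 12 not, with a median of 0.05, beside the same 6.2% and 5.12%. Postn (1.64), the laminin chain gene Lamb1 (1.28) and the nidogen gene Nid2 (0.89) rose, the latter 2 coding for basement membrane proteins. Comp (−1.21), a cartilage and tendon protein that binds collagen fibrils, fell. Of the list's other nidogen and laminin genes, Nid1 (0.58) was called higher, and Lamc1 (0.39) and Lama4 (−0.44) were not called. Hspg2 (−0.02), which codes for another basement membrane protein, was not called either. With all probe sets fitted at once, the calls of P3h2, Adamts14, Pcolce2, Itga11, Mmp9, Egr1, Postn and Nid2 were lost (limma adjusted p = 0.0628 to 0.222).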

How the data were processed

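RNA was amplified and labelled with biotin, per the labels' protocols, and read on Affymetrix arrays. The authors deposited 1 table of log2 intensities with 41345 probe sets. Among tools, limma and oligo are named in the submitters' processing notes, and the normalization is not given in the sources used here. Values ran from 0.43 to 12.2 log2. Exactly 1 gene symbol was listed for 23521 probe sets, several for 1814 and none for 16010. The 44 members held 47 probe sets, and all 44 matched RefSeq (GRCm38.p6) by Entrez identifier, with 0 symbols changed.

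Genes were fitted in R 4.3.3 with limma 3.58.1 (lmFit, eBayes, two-sided, 2 residual and 3.99 prior degrees of freedom, Benjamini-Hochberg), without a block. The members, classes and lists were chosen with earlier results of these data known. Array values are given for called members, Col1a1, Col1a2, Col2a1, Col3a1 and the other chains of a called member's type; other members given by array, Serpinh1 and the named markers were chosen after their values were seen. In the other lists, up to 4 called genes with the largest change are named. Nid1, Lamc1, Lama4 and Hspg2 were added after their values were seen. On simulated data with 12708 genes, 200 of them changed, 2.16% of changes of 0.5 log2, 75.4% of 1 log2 and 98.3% of 2 log2 were called. Of the calls, 5.38% were false. In the real fit 1439 genes were called, so the simulated shares need not hold for these data. Alternatives were no or a stricter filter, a replicate block, quantile normalization, centring, other variance models, array weights, mean or every probe set, leaving out arrays and a threshold of 0.1.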

Additional observations from a re-analysis of the deposited data

How the results depend on the processing

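Of the 7 collagen calls, all 7 were also made without a filter, with the replicate block, after quantile normalization, after centring, with array weights, with probe sets averaged per gene and with the brightness-following robust prior. With the replicate number as a block, 1057 genes were called, and the collagen counts were again 6 higher and 1 lower, while Pcolce2 was not called (limma adjusted p = 0.0849). The labels do not say whether the numbers pair the arrays. Deviations of same-numbered arrays correlated at −0.04 over genes, a value that cannot decide whether they were paired. Collagen genes called higher numbered 3 under the stricter filter, 10 with the robust prior, 1 with every probe set in 1 fit and 2 with every probe set and the robust prior. Those called lower numbered 2, 3, 0 and 0 in that order, and 3 at a threshold of 0.1; the fits with 0 lower are limma fits in which Col8a1 had adjusted p = 0.121 and 0.0548. Genes called in all numbered 218 with every probe set, 547 with every probe set and the robust prior, and 2365 at a threshold of 0.1. Leaving out 1 array gave 687 to 1131 genes called, 5 to 7 collagen genes higher and 0 to 1 lower. The median of the basement membrane class was 0.10 without the filter and with every probe set under either prior, and 1.04 under the stricter filter; that of the network class was −0.043 without the filter and with every probe set under either prior, and these fits hold other members. Signs turned in uncalled members near 0: Col11a2 was −0.0019 with quantile normalization and −0.0063 with centring, and Col20a1 was −0.00032 with quantile normalization. Leaving out 1 array gave changes from −0.23 to 0.26 in Col11a2, −0.089 to 0.19 in Col20a1, −0.32 to 0.18 in Col9a1, −0.61 to 0.084 in Col9a3 and −0.16 to 0.0043 in Col2a1. Where no cause is visible in how an alternative is built, the cause was not tested. Signal near background limits the dim members, 11 of which were not tested.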

Other observations

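Col28a1, which encodes a collagen known from nerve sheath cells and lies in no main class, had a mean of 1.94 log2, below the brightness limit, so it was not tested with the others. It was at 1.50 and 1.70 in wild type and at 2.30 and 2.25 in knockout, and the groups did not overlap. Without the filter it was called (limma adjusted p = 0.0274), but not when every probe set was fitted at once, and its wild-type signal below the array medians makes the size of the change of 0.67 log2 uncertain. Of 4 tested markers of Schwann and neural cells, limma called 0, and 2 had an unadjusted p below 0.05 (S100b at 1.02 and Foxd3 at −0.28 log2), beside 27.5% of all tested genes.

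Collagen genes that are next to each other among protein-coding genes in RefSeq formed 8 pairs. In 1 pair, Col4a1 with Col4a2, both genes were called. In 1 other, Col4a6 with Col4a5, only the first was called. The neighbours Col3a1 and Col5a2 on chromosome 1 gave −0.10 and −0.23, and Col6a2 and Col6a1 on chromosome 10 gave −0.20 and −0.11, with no call in either pair. In the other 4 pairs at least 1 gene was below the brightness limit.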
